A study of Homo sapiens with 6 samples.

Results

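The regulators of G protein signalling (RGS genes) described here are RGS2, RGS3, RGS4, RGS5, RGS10, RGS12, RGS14, RGS16, RGS19 and RGS20, 10 of the 26613 genes listed in at least 1 library. They were selected by name from results of the same comparison: RGS10 and RGS19 had been among the genes with the largest differences between the groups, so the differences below are given as a description, without p-values. The cells were 293T, a descendant of the HEK293 human embryonic kidney line that takes up nucleic acids readily. In the mimic group, 3 cultures received a miR-941 duplex at 10 nM. In the mock group, 3 cultures received a scrambled oligonucleotide whose concentration the labels do not record, so dose and sequence cannot be told apart. Both groups were transfected with Lipofectamine 2000, and no untransfected culture was analysed here. RNA-seq was made from total RNA depleted of ribosomal RNA.

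A G protein is switched on when a receptor makes its alpha subunit exchange GDP for GTP, and off when the alpha subunit hydrolyses the GTP. RGS proteins bind the active alpha subunit through a shared domain and speed up that hydrolysis, which shortens the signal. The genes fall into families by sequence. RGS2, RGS3, RGS4, RGS5 and RGS16 belong to the R4 family, mostly small proteins, RGS10, RGS12 and RGS14 to the R12 family, and RGS19 and RGS20 to the RZ family. A microRNA mimic loads a strand into Argonaute, which then lowers transcripts whose 3′ UTRs pair with the strand's seed, its bases 2 to 8.

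The miR-941 strand and the member site that matches it are shown because RGS10 alone among the 10 genes carried the full seed match. In the microRNA, taken from RefSeq on GRCh38.p14, capitals mark the seed. In the RGS10 3′ UTR, taken from GENCODE release 29 on GRCh38, capitals mark the match to the seed.
miR-941: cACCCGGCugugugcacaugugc
RGS10 3′ UTR site: tcaggaccgtGCCGGGTttatcattgc

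The RGS10 site lies at chr10:119500046-119500052 on the minus strand, in exon 5 of 5. It begins at base 61 of a 3′ UTR of 285 bases, and the base after it is not an A. All 3 annotated coding transcripts of RGS10 carried it in their 3′ UTR. The motif searched was GCCGGGT, on the transcript strand only. It was present in the longest coding-transcript 3′ UTR of 634 of 12997 tested genes, or 4.88%. Of those 634 genes, RGS10 among them, 80 were called fallen and 40 risen by the test described below. Their median log2 fold change was −0.02, and 1 gene was lower than RGS10. Nothing is read from that place, since RGS10 was chosen for its large difference. Of the 12363 genes without the motif 831 were called fallen. Genes with and without it were not matched for 3′ UTR length, and the difference was not tested. Among the 1282 tested genes with a 3′ UTR of 200 to 400 bases, like that of RGS10, the motif was present in 11, or 0.858%. Of these 11 genes, RGS10 among them, 4 were called fallen and 0 risen, and of the 1271 without the motif 85 were called fallen. None of the other 9 members had the motif in any annotated 3′ UTR of a coding transcript, and none had its 6-base core CCGGGT in the longest one. These 3′ UTRs ranged from 526 bases in RGS14 to 5043 in RGS5, so all were longer than that of RGS10.

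Coding sequence was searched only in the transcript with the longest 3′ UTR of each gene. For RGS5 and RGS3 this was 222 and 936 bases, and coding sequence found only in their other transcripts was not searched. No member held GCCGGGT there, and RGS12, RGS14 and RGS20 held the core CCGGGT once each. Of all 12997 genes, 18.2% had at least 1 copy of the core. The copies in RGS12 (chr4:3317478-3317483, plus strand, exon 1 of 16) and RGS14 (chr5:177371892-177371897, plus strand, exon 15 of 15) are shown for contrast with the RGS10 site, with the core in capitals.
RGS12 coding sequence: agaagagcaaCCGGGTccttgtggtg
RGS14 coding sequence: agctgctgaaCCGGGTgcagagcagc

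The libraries held 6079420 to 7651046 counts, so that 3 counts corresponded to 0.392 to 0.493 CPM (counts scaled to 1000000 per library). CPM values below are scaled by TMM factors of 0.994 to 1.006. The p-values below set the group difference against the spread between libraries from transfections that the labels call independent. That spread includes counting noise, which weighs most in genes with few counts, such as the members. The fitted variation beyond counting noise, common to all genes, was 3.82%. Of 7 genes listed as markers of HEK293 cells, the neurofilament gene NEFM (81.8 ± 2.90 and 55.9 ± 2.14 CPM in mimic and mock, SD, n = 3), INA, PAX2, KRT8, KRT18 and VIM were detected in every library, and the gene identifier used for NEFL was listed in none. Of 10 markers of other cell types, only the collagen gene COL1A1 exceeded 3 counts in a library, at 38.1 ± 2.64 and 36.3 ± 1.43 CPM. PTPRC, DCN, PECAM1 and TYR were at 0 in all 6 libraries under the identifiers used.

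All 10 members passed the filter on low counts, and RGS4 and RGS20 were the lowest, with 10 to 23 counts per library. RGS17, the remaining RGS gene that passed, had 14, 10 and 6 counts in the mimic and 14, 9 and 11 in the mock libraries, just inside the filter. RGS9, just outside it, had 10, 7 and 9 against 18, 8 and 8 counts. The other RGS genes were too low to test. RGS7 had 7, 4 and 7 counts in the mimic and 14, 10 and 9 in the mock libraries, RGS11 4 to 8 and RGS6 1 to 5. RGS1 and RGS22 had at most 1 count in a library. RGS8, RGS13, RGS18 and RGS21 had 0 counts everywhere. A 0 in 1 library alone allows an expected count of up to 3 there, and 0 in all 6 libraries together allows less.

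RGS10, RGS12 and RGS14 make up the R12 family. RGS10, which is little more than an RGS domain and acts on Gi-type alpha subunits, had 5.14, 5.17 and 5.67 CPM in the mimic libraries and 13.0, 10.4 and 12.3 CPM in the mock libraries. Every mimic library lay below every mock library, and the spread within the mimic group was small. The group means were 5.33 ± 0.295 and 11.9 ± 1.34 CPM (SD, n = 3), and the log2 fold change was −1.16 ± 0.17 (SE), which leaves 44.7% of the mock level. In raw reads this was 112 counts over the mimic group against 246 over the mock group.

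RGS12 and RGS14, multidomain proteins that also bind Ras-type GTPases and, through a GoLoco motif, inactive Gi alpha subunits, differed far less. RGS12 had 18.3, 21.4 and 20.9 CPM in the mimic libraries and 23.1, 20.4 and 19.0 CPM in the mock libraries, with a log2 fold change of −0.05 ± 0.11. Its sign was positive without mock replicate 1 (0.03 ± 0.12) and without mimic replicate 1 (0.02 ± 0.12). RGS14 had 13.1, 12.9 and 11.8 CPM against 15.3, 12.8 and 15.9 CPM, a log2 fold change of −0.21 ± 0.13. In both genes the groups overlapped, in RGS14 through mock replicate 2.

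RGS19 and RGS20 belong to the RZ family, whose cysteine-rich amino-terminal part anchors them to membranes. RGS19, first known as the G alpha interacting protein GAIP, had 13.3, 13.0 and 12.1 CPM in the mimic libraries and 5.83, 6.26 and 6.89 CPM in the mock libraries. No library of either group came near the other group. Its log2 fold change was 1.03 ± 0.16, or 2.04-fold, from 271 counts over the mimic group and 130 over the mock group. RGS20, a regulator of Gz and Gi alpha subunits, had 3.03, 2.79 and 2.20 CPM against 2.44, 2.22 and 1.64 CPM. Its groups overlapped, and its log2 fold change of 0.34 ± 0.30 rested on 57 against 44 counts.

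**Figure D1:**
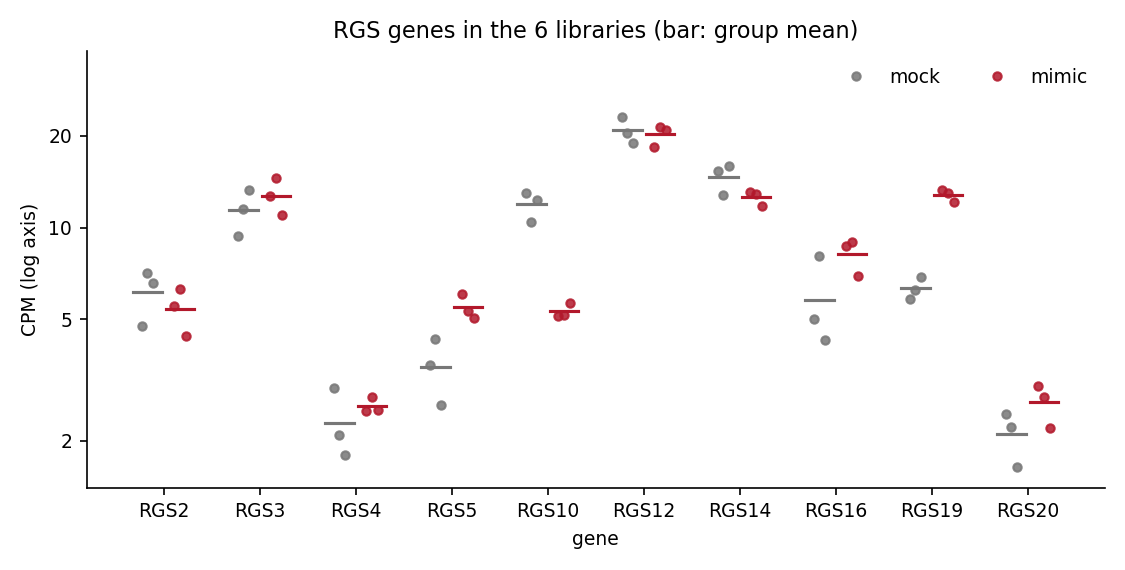
Normalised level in CPM (log axis) of each of the 10 RGS genes in the 3 mock (grey) and 3 mimic (red) libraries, with bars at the group means. RGS10 lies lower in all 3 mimic libraries and RGS19 and RGS5 lie higher, while the groups of the other 7 genes overlap.

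The R4 family showed its 2 largest differences in RGS5 and RGS16, and both were higher after the mimic. RGS5, best known as a marker of pericytes, had 6.07, 5.31 and 5.04 CPM in the mimic libraries and 3.53, 4.31 and 2.62 CPM in the mock libraries. The groups did not overlap, although the lowest mimic and the highest mock library were close. Its log2 fold change was 0.64 ± 0.22, from 116 against 73 counts. RGS16, which acts on Gi and Gq alpha subunits, had 8.70, 8.94 and 6.93 CPM against 5.02, 8.06 and 4.26 CPM. Mock replicate 2 lay inside the mimic range, and the log2 fold change was 0.49 ± 0.19 with it and 0.82 ± 0.22 without it.

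The other R4 genes differed by amounts close to or below their SEs. RGS2, which prefers Gq alpha subunits, had 5.54, 6.29 and 4.41 CPM against 4.75, 7.09 and 6.56 CPM, a log2 fold change of −0.16 ± 0.20. RGS3, a longer member with many isoforms, had 12.7, 14.5 and 11.0 CPM against 9.36, 11.5 and 13.3 CPM, a log2 fold change of 0.18 ± 0.14. RGS4, a Gi and Gq regulator abundant in brain, had 2.51, 2.79 and 2.52 CPM against 2.98, 2.09 and 1.80 CPM, a log2 fold change of 0.17 ± 0.29. In all 3 genes the mimic and mock libraries overlapped. The SEs of RGS2, RGS4 and RGS20 lay between 0.20 and 0.30 on the log2 scale, so differences of that size were not detectable at this depth. Differences of more than 1 SE could be missed as well, since RGS16, at 0.49 ± 0.19, was not called.

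**Figure D2:**
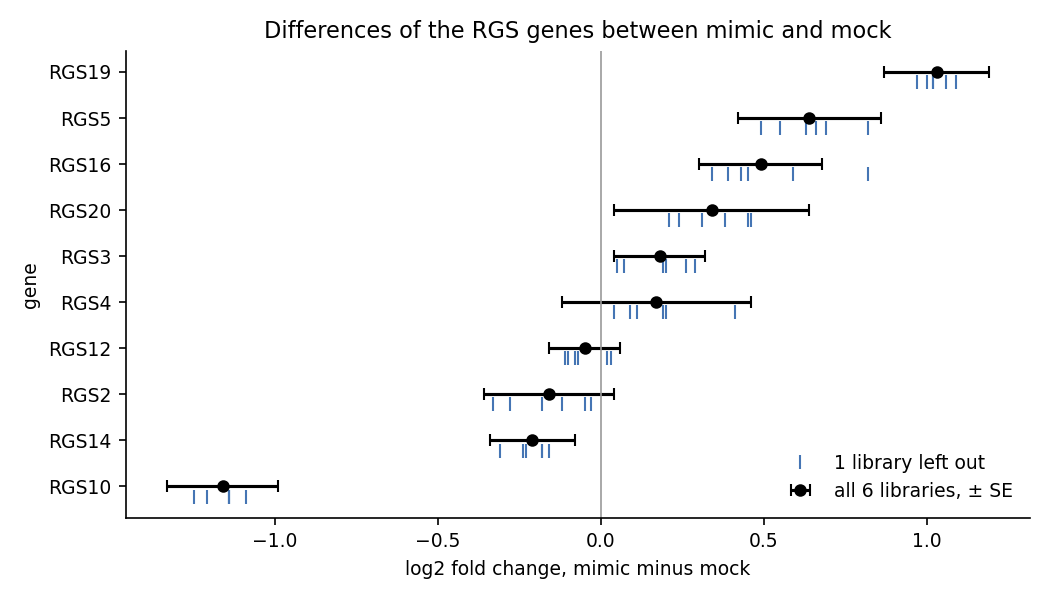
Log2 fold change, mimic minus mock, of each RGS gene from the fit to all 6 libraries (black, ± SE) and with 1 library left out in turn (blue ticks). RGS10 stays between −1.25 and −1.09 and RGS19 between 0.97 and 1.09, while RGS16 ranges from 0.34 to 0.82.

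With p-values of edgeR's quasi-likelihood test adjusted by Benjamini-Hochberg over 15607 genes (threshold 0.05), RGS19 and RGS5 were called risen and RGS10 fallen, 3 of 10 members. Over all genes 13.0% were called, 6.80% risen and 6.19% fallen. Groups that did not overlap were found in the same 3 members and in 28.3% of all genes. Since this contrast chose the members, nothing is read from these shares. The calls differed in firmness. Those of RGS10 and RGS19 held in every alternative that gave them an adjusted p, 11 and 12 in number. The alternatives reuse the libraries from which both genes were chosen, so they give no independent support. That of RGS5 lay next to the threshold and was lost in 6 of 10, among them without mimic replicate 1 (log2 fold change 0.55 ± 0.26), without mimic replicate 2 (0.66 ± 0.25), without mock replicate 1 (0.63 ± 0.26) and without mock replicate 3 (0.49 ± 0.23). RGS16, not called here, was called without mock replicate 2 and without mimic replicate 3 (0.59 ± 0.19). By size of log2 fold change RGS10 ranked 18 and RGS19 ranked 36 among the 15607 genes, RGS5 315 and RGS16 698. The median log2 fold change of the members was 0.17, with 6 above and 4 below 0, against 0.00 over all genes. Nothing is read from this median either, since the members were chosen with this contrast known.

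Levels of different genes were compared as CPM per kb of annotated exon, a scale on which genes with many long isoforms, such as RGS3 and RGS12 (13.8 kb of exon each), come out low. In the mock group RGS10 was the most abundant member, at 9.52 ± 1.07 CPM per kb (SD, n = 3). RGS14 (3.86 ± 0.436), RGS19 (3.12 ± 0.261), RGS2 (2.93 ± 0.586) and RGS16 (2.38 ± 0.829) followed, each overlapping the next in its library values. RGS12 (1.51 ± 0.149 CPM per kb) stood apart below them. RGS3, RGS20, RGS5 and RGS4 came last, from 0.826 to 0.474 CPM per kb, again each overlapping the next.

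In the mimic group RGS19 led, at 6.32 ± 0.306 CPM per kb, and RGS10 was second at 4.25 ± 0.236, with no overlap between them. RGS16 (3.37 ± 0.454 CPM per kb) and RGS14 (3.31 ± 0.177) overlapped each other, and RGS2, RGS12 and the 4 lowest genes kept their order. The ratio of RGS19 to RGS10, per kb, was 1.60, 1.55 and 1.32 in the mimic libraries and 0.277, 0.370 and 0.346 in the mock libraries. RGS10 made up 17.5 ± 2.01% of the summed level per kb of the 10 members after the mimic and 36.9 ± 3.90% after the mock, and RGS19 25.9 ± 0.620% and 12.1 ± 1.00%. The sum itself was 25.0, 25.4 and 22.8 CPM per kb in the mimic libraries and 25.9, 25.6 and 25.9 in the mock libraries. Every mimic sum lay slightly below the mock sums, while the sums in CPM without the length scale overlapped, at 82.6 to 93.0 and 84.3 to 85.3. In a bulk culture, fewer cells with a transcript and less of it per cell cannot be told apart.

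**Figure D3:**
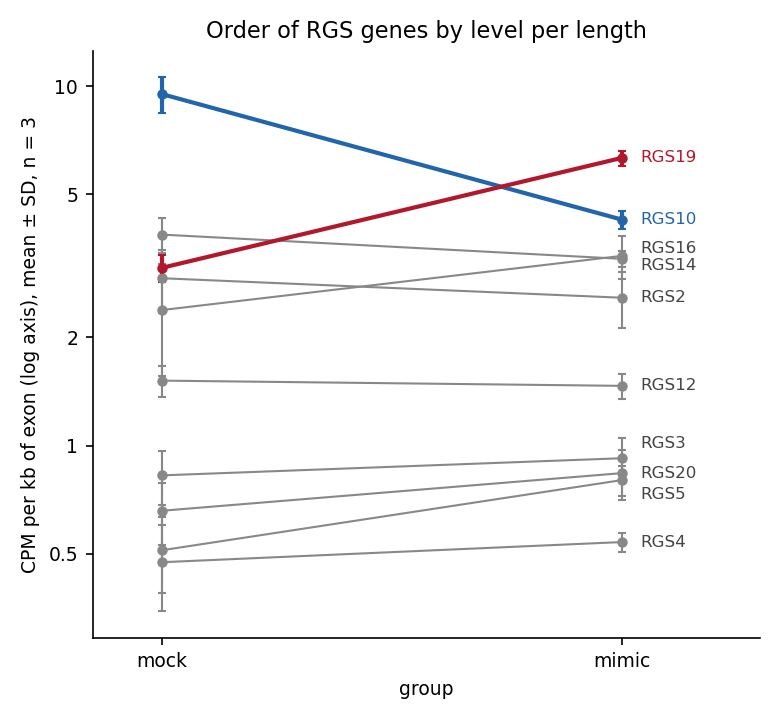
Mean level of the 10 RGS genes per kb of exon (log axis, ± SD, n = 3 libraries) in the mock and mimic groups, with lines joining a gene's means. RGS10 (blue) goes from the highest mean to the next, and RGS19 (red) becomes the highest.

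Position was compared next, from GENCODE release 29 on GRCh38. RGS4 and RGS5 are neighbours on chromosome 1, with 34.3 kb between them and opposite strands, and RGS2 and RGS16 lie further along the same chromosome. RGS19 lies at chr20:64073181-64079988 on the minus strand. The annotated copies of miR-941, which numbered 5, lie on the same chromosome, 153 kb from it. The exons of RGS5 share 534 bases with an unnamed gene on the same strand, which had 30 to 48 counts per library and a log2 fold change of −0.06 ± 0.19. The share of its reads in the RGS5 count was not tested. No other member had exons that overlap a counted gene.

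The tested genes nearest to RGS19, RGS10 and RGS5, up to 3 on each side, were chosen by distance after the members' values were known. Beside RGS19, the elongation factor gene TCEA2 ends 0.834 kb from its 3′ end on the opposite strand, and rose by 0.25 ± 0.08 on the log2 scale (adjusted p = 0.0242, edgeR's quasi-likelihood test). The annotated exons of these genes do not overlap. Reads from past the annotated end of one gene could count for the other if strand was ignored. The sources used here do not state that setting, and such reads were not tested for. The nociceptin receptor gene OPRL1, which starts next to RGS19 in the other direction, had 1 to 11 counts per library and was not tested. The spliceosome gene PRPF6 had a log2 fold change of −0.00 ± 0.05 and MYT1, a zinc-finger gene, 0.65 ± 0.36, neither called. Beside RGS10, the receptor kinase gene GRK5 (−0.02 ± 0.14) and TIAL1 (−0.10 ± 0.06), an RNA-binding protein gene, were not called. In the same stretch BAG3, a co-chaperone gene 109 kb away, fell by 0.29 ± 0.06 on the log2 scale (adjusted p = 5.18e-04 in edgeR's quasi-likelihood test) and PRDX3, a mitochondrial peroxidase gene 321 kb away, by 0.42 ± 0.05 (adjusted p = 3.12e-08). None of the 6 nearest tested genes of RGS5 was called.

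Some genes outside the pathway had nearly the same pattern over the 6 libraries, measured as the distance between standardised log2 CPM values. Among the closest to RGS10 were MTMR9, AEN and NAPA (distances 0.104 to 0.175, r of at least 0.997). Of these, MTMR9 (−0.66 ± 0.09) and NAPA (−0.64 ± 0.06) had the largest log2 fold changes. Among the closest to RGS19 were PLA2G12A, PTGR3, ACAT1 and ZNF816-ZNF321P (distances 0.102 to 0.218, r of at least 0.995), and of these PLA2G12A had the largest log2 fold change, 0.41 ± 0.09 at 37.0 against 27.9 CPM. Those closest to RGS5 were MAPKAPK5-AS1, SIGLEC10, NRDC, ODF2L and FAM76A (distances 0.193 to 0.327). These are descriptions over 6 libraries in 2 groups, which all genes share.

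The partners of RGS proteins, taken from lists of G protein pathway genes, were compared last. The alpha subunits, which RGS proteins act on, differed in both directions. Of 11 tested alpha subunit genes 3 rose and 1 fell, or 36.4% called against 13.0% over all genes, which was not tested. GNA11, which couples receptors to phospholipase C, rose from 51.4 ± 2.83 to 67.9 ± 5.39 CPM, a log2 fold change of 0.40 ± 0.07 (adjusted p = 1.75e-05, edgeR's quasi-likelihood test). GNAI2, an inhibitory subunit for adenylyl cyclase, rose by 0.23 ± 0.05 (adjusted p = 0.00182), whereas its relative GNAI3, the subunit through which RGS19 was first found, fell by 0.24 ± 0.06 (adjusted p = 0.00495, but 0.106 without mock replicate 3). The exons of GNAI3 overlap those of the same-strand gene AMPD2 and of GNAT2 on the opposite strand. GNAQ, a close relative of GNA11, rose by 0.18 ± 0.06, with an adjusted p of 0.0461 that passed the threshold in 4 of 12 alternatives and in 2 of the 6 that left out a library, those without mimic replicate 2 and without mock replicate 2. GNAS, the stimulatory subunit and the most abundant on the CPM scale, had 0.10 ± 0.04 (adjusted p = 0.115). GNAO1, GNAZ, GNAI1, GNAL, GNA12 and GNA13 did not pass.

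Of 15 tested beta and gamma subunit genes 0 rose and 2 fell, or 13.3% called against 13.0% over all genes, and both calls were lost without mock replicate 3. Their median log2 fold change was −0.10, against 0.00 over all genes. GNB1, the main beta subunit gene in these cells on the CPM scale, fell from 419 ± 2.67 to 375 ± 4.28 CPM (log2 fold change −0.16 ± 0.04, adjusted p = 0.0102 by edgeR's quasi-likelihood test, 0.0524 without mock replicate 3). GNB5, the beta subunit that pairs with RGS6, RGS7, RGS9 and RGS11, fell from 29.9 ± 0.988 to 23.9 ± 2.84 CPM (−0.31 ± 0.10, adjusted p = 0.0211). The GNB5 call was lost in 5 of 12 alternatives, among them without mimic replicate 2 (adjusted p = 0.0526), mimic replicate 3 (0.114), mock replicate 2 (0.0889) and mock replicate 3 (0.0623). Its exons overlap those of an unnamed gene on the opposite strand. The RGS genes that pair with GNB5 were themselves too low to test.

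Among the effectors, 1 of 11 tested genes rose and 1 fell, both adenylyl cyclases, or 18.2% called against 13.0% over all genes. ADCY9 rose from 45.9 ± 3.88 to 56.8 ± 1.91 CPM (log2 fold change 0.31 ± 0.07, adjusted p = 0.00185 by edgeR's quasi-likelihood test), and ADCY1, which calcium and calmodulin stimulate, fell from 62.2 ± 2.87 to 50.1 ± 0.815 CPM (−0.31 ± 0.07, adjusted p = 8.62e-04). The tested phospholipase C beta genes did not pass. Of 7 receptor kinase and arrestin genes none was called, with GRK2 at 0.13 ± 0.06 and GRK6 at 0.04 ± 0.06. None of 6 genes for other alpha subunit regulators or RGS partners was called either. Among them were GIPC1, whose protein binds RGS19, at 0.01 ± 0.06, and CCDC88A at 0.08 ± 0.06.

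Proteins outside the family that carry an RGS-like domain gave 1 risen and 2 fallen genes of 9, or 33.3% called. The share over all genes was 13.0%, and the difference was not tested. AKAP10, an anchor for protein kinase A, fell from 56.4 ± 2.50 to 43.1 ± 2.69 CPM (log2 fold change −0.39 ± 0.07, adjusted p = 7.76e-05 by edgeR's quasi-likelihood test). AXIN1, the scaffold that promotes breakdown of beta-catenin, rose by 0.26 ± 0.06 (adjusted p = 0.00241, and 0.0544 without mimic replicate 2). ARHGEF12, a guanine nucleotide exchange factor driven by G12-type subunits, fell by 0.14 ± 0.05 with an adjusted p of 0.0422 that passed in 4 of 12 alternatives and in 1 of the 6 that left out a library.

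RGS4, RGS5 and RGS16 proteins are degraded through an N-terminal arginine that the transferase ATE1 adds. ATE1 fell from 51.9 ± 4.28 to 40.9 ± 0.860 CPM (log2 fold change −0.35 ± 0.08, adjusted p = 6.76e-04 by edgeR's quasi-likelihood test), with every mimic library below every mock library. The ubiquitin ligase gene UBR4 rose by 0.14 ± 0.04 (adjusted p = 0.0210), a call that was lost in 4 of 12 alternatives, all of which left out a library: mimic replicate 1 (0.101), mimic replicate 2 (0.0593), mock replicate 1 (0.125) or mock replicate 3 (0.0857). METAP1, METAP2, UBR1 and UBR2 did not pass. Protein levels were not measured.

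Over the 7 lists of G protein partners together, 6 of 65 tested genes rose and 7 fell. These 13 called genes made up a larger share of the 65 than the 13.0% called over all genes. The difference in share was not tested. Without mock replicate 3 the fallen genes numbered 3. Of these 65 genes 5 had a GCCGGGT motif in the longest 3′ UTR. GNAI3 and ADCY1 fell and GNA11 rose, while GNAZ (−0.11 ± 0.09) and ADCY2 (−0.44 ± 0.24) did not pass. The longest 3′ UTRs of GNAI3 and ADCY1, 25999 and 9121 bases, were far longer than that of RGS10.

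**Figure D4:**
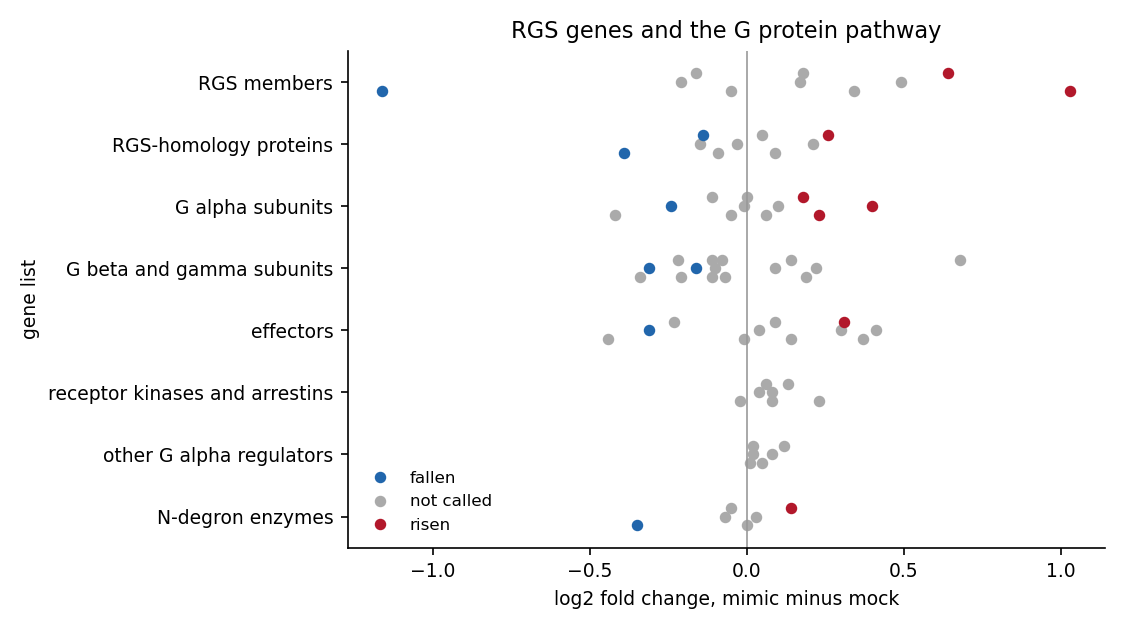
Log2 fold change, mimic minus mock, of each tested gene (points) in the RGS group and 7 lists of its partners, coloured by the call of edgeR's quasi-likelihood test. RGS10 at −1.16 and RGS19 at 1.03 lie outside the range of the partner genes, which runs from −0.44 to 0.68. Both had been chosen for their large differences, so nothing is read from this position.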

How the data were processed

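Gene-level RNA-seq counts of 6 libraries were analysed, 3 per group, grouped by their titles. The authors deposited raw read counts for each Ensembl gene, without normalization. STAR, edgeR and the build hg19 are named per the submitters' processing notes. Counting program, annotation and strand setting: not given in the sources used here. Genes missing from a library's table were set to 0. Gene models and 3′ UTRs came from GENCODE release 29 on GRCh38, so all coordinates are on that build and not on hg19. Symbols were found for 25141 of 26613 genes.

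Counts were filtered with edgeR's filterByExpr (15607 genes kept), scaled by TMM and tested with the quasi-likelihood test with robust dispersions, group only, two-sided, adjusted by Benjamini-Hochberg at 0.05, in R 4.3.3 with edgeR 4.0.16 (DESeq2 1.42.0 as an alternative). SEs derive from the test statistic. The script was tested on simulated data.

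The members and lists were chosen with earlier results of these data known. Named were all members, up to 4 called genes per list by smallest p or, where none was called, the 2 with the highest CPM, the 5 genes most alike to each called member, and genes with overlapping exons. Some of the named genes are not reported here. Genes given without being called beyond these were added after their values were seen. Library depth (6079420 to 7651046 counts) sets the precision, and PCR duplicates could not be removed. Alternatives were DESeq2, its size factors, upper quartile scaling, no filter, a filter at a mean of 5 CPM, the replicate number as a block, and each library left out in turn.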

Additional observations from a re-analysis of the deposited data

How the results depend on the processing

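The 10 members' log2 fold changes moved by less than the replicate SD in all 117 values from 12 alternatives, and no called member changed sign. This does not show stability. Every alternative reused the same counts, and leaving out 1 of 3 libraries can hardly move a group mean by more than the SD. With 1 library left out, RGS16 ranged from 0.34 to 0.82 and RGS5 from 0.49 to 0.82. The count of members called risen was 1, not 2, without a filter on low counts, with the filter at a mean of 5 CPM, which removed RGS5 from the test, and with the replicate number as a block, and it ranged from 1 to 3 when 1 library was left out. The count called fallen was 1 throughout. DESeq2's Wald test gave an adjusted p to 4 of the 10 members, so no count of called members is given for it. Its log2 fold changes were −1.17 for RGS10 and 1.02 for RGS19.

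Over all genes, 1061 rose and 966 fell. With DESeq2 516 rose and 499 fell, and with 1 library left out 689 to 1080 rose and 613 to 981 fell. Both upper ends came without mimic replicate 3, the library that departed most from its group. Its chi-square per degree of freedom against mimic replicates 1 and 2 was 2.04 and 2.38, over genes with at least 20 counts in the pair. Between mimic replicates 1 and 2 it was 1.27, and between mock libraries 1.45 to 1.52. In the lists of G protein partners, 3 to 7 fell when 1 library was left out, the lowest without mock replicate 3. Of 156 values for 13 called partner genes, 128 kept their call and 28 lost it, none with a change of sign.

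Libraries with the same replicate number did not deviate together, with correlations of 0.0374, −0.0459 and −0.0162, and only mimic replicate 1 correlated best with its own number. With that number as a block 965 genes rose and 854 fell. RGS5 was no longer called, and the adjusted p of GNAQ was 0.0626 and of ARHGEF12 0.0610 in edgeR's quasi-likelihood test. Counts below about 60 over a group, as in RGS4 and RGS20, limit what can be seen.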
